A study of Mus with 2 samples.

Results

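Promyelocytes and granulocyte-monocyte progenitors of mouse bone marrow were selected on measured transcript levels, as cell barcodes in which those of Elane, Mpo, Prtn3 and Ctsg together made up at least 1% of all unique molecular identifiers (UMIs, tags that count each captured molecule once). The rule kept 622 of 18089 barcodes that passed the quality limits, out of 18635 in the matrices. Of these members, 386 came from the ground library and 236 from the running library. The study set marrow cells from the hindlimbs of mice in a group named ground against those of mice in a group named running, each profiled by 3′ single-cell RNA sequencing in 1 library. Strain, age, the number of mice per library and the running protocol are not given in the sources used here, and no other treatment is named. No difference below has a replicate check, all intervals are 95% and cover counting error only, and running cannot be told apart from handling or library preparation.

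Neutrophils and monocytes descend from a shared granulocyte-monocyte progenitor. On the neutrophil side this progenitor becomes a promyelocyte, the stage that transcribes the cargo of the azurophil granules, the first granules to form. Myelocytes then switch to the specific granule genes such as Camp and Ltf, while monocyte progenitors turn to Irf8 and Klf4 and keep lower levels of some azurophil transcripts. The marker genes encode neutrophil elastase (Elane), the peroxidase that makes hypochlorous acid (Mpo), proteinase 3 (Prtn3) and cathepsin G (Ctsg).

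The members were among the deepest barcodes of the marrow. Their median was 28546.5 UMIs in ground (538 to 114937) and 30456 in running (544 to 102961), against 5993 and 5196.5 over all kept barcodes. The median number of detected genes was 4463.5 and 4988.5, and mitochondrial transcripts took a median of 2.54% and 2.71% of their UMIs. In total they held 10482109 UMIs in ground and 7447599 in running. The libraries shared 24 barcode sequences, and 2 of the ground members carried a barcode that also occurred in running.

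The members were chosen by the summed share of these markers, so the marker values are a description only. The markers took a median of 2.53% of a ground member's UMIs (highest 7.79%) and 2.37% of a running member's (highest 6.55%). Just inside the limit, between 1.0% and 1.1%, lay 12 ground and 13 running barcodes, and just outside, between 0.9% and 1.0%, lay 18 and 10. Members held 86.8% of all marker UMIs of the kept barcodes in ground and 84.9% in running. Among barcodes rich in B-cell transcripts, which should lack these genes, the markers took 0.0132% of UMIs in ground and 0.00930% in running, and 0 of 1264 and 0 of 1284 such barcodes were members. No profile of free RNA was estimated.

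Summed over members, Elane (chr10:79886312-79888216, GRCm38) stood at 9013 CPM (UMIs of the gene scaled to a fixed total per library of members) in ground and 9062 in running, and Mpo (chr11:87793784-87804412) at 5967 and 5995. Prtn3, the neighbour of Elane on the chromosome (chr10:79879667-79883174), stood at 9624 CPM in ground and 7706 in running, a log2 ratio of running over ground of -0.32 (-0.34 to -0.31). Ctsg (chr14:56099885-56102574) stood at 4074 and 3321 CPM, a log2 ratio of -0.29 (-0.32 to -0.27). Since the sum of these genes chose the members, these values carry no test.

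Ms4a3, Nkg7 and Prss57, which the rule did not use, stood higher in members than in the sets given with each. Not all marker genes of the label are compared here, and these sums over members do not place each member. Ms4a3, a membrane protein gene used to trace granulocyte-monocyte progenitors, stood at 1310 CPM in ground members and 1147 in running members, against 39.2 and 30.8 in stem and progenitor barcodes, 94.1 and 93.7 in specific granule barcodes and 14.6 and 10.6 in monocyte barcodes. Nkg7, a granule membrane gene better known from killer lymphocytes, stood at 685 and 624 CPM in members and at 35.8 and 32.2 in specific granule barcodes. Prss57, another serine protease of azurophil granules, stood at 301 and 264 CPM in members, 20.6 and 17.3 in stem and progenitor barcodes and 22.8 and 22.7 in specific granule barcodes. These sets are defined by other genes, and the stem and progenitor set also held B-cell markers at 7054 and 7436 CPM. Sox4, a progenitor factor that helped define that set, went the other way, with 39.8 and 59.6 CPM in members and 929 and 812 in stem and progenitor barcodes. Cxcr2, the chemokine receptor that helped define the mature neutrophil set, stood at 15.3 and 20.1 CPM in members and 1597 and 1315 in mature neutrophil barcodes. Both libraries placed Ms4a3, Nkg7 and Prss57 in the same order across the sets named with each. Sox4 and Cxcr2 helped define the sets they are compared with, so their order is a description only.

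**Figure D1:**
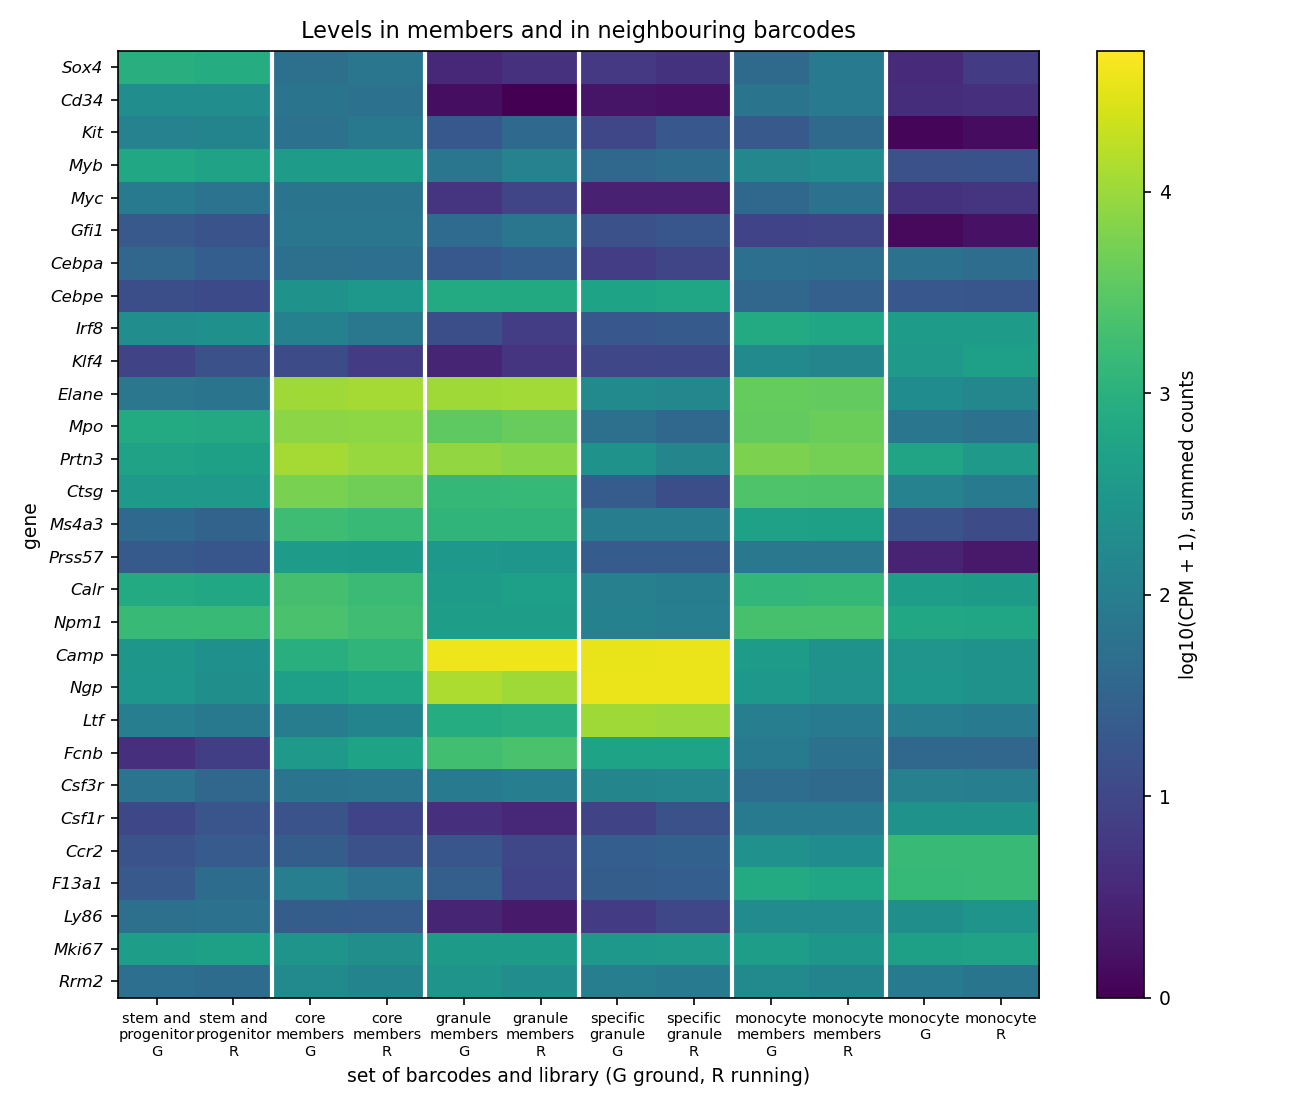
Levels of named genes (rows) in the groups of members and in neighbouring sets of barcodes (columns, ground G and running R), as colour on a log10(CPM + 1) scale. The azurophil genes are high in the member columns and low in the others, Camp is high in the granule group and in specific granule barcodes, and the paired columns of ground and running look alike.

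The members were not uniform. They were split by genes outside the rule into a granule group (Camp, Ltf, Ngp and Chil3 at 2% of UMIs or more), a monocyte group (Ccr2, Csf1r, F13a1, Ms4a6c and Fn1 at 0.1% or more) and the remainder, called the core group. The limit of 0.1% was chosen after the data were seen, and 35 ground and 16 running members lay near it, between 0.08% and 0.12%. Among members with at least 10000 UMIs, the core group held 142 of 266 in ground (53.4%, 47.2 to 59.5%) and 111 of 224 in running (49.6%, 42.8 to 56.3%). The granule group held 23.7% and 24.6%, and the monocyte group 22.9% and 25.9%. The make-up of the deep members by group differed between the libraries by less than the counting intervals.

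The transcription factors that steer these fates were distributed by group in both libraries. Irf8, the factor required for monocyte progenitors, stood at 755 CPM in ground and 600 in running in the monocyte group, at 116 and 76.2 in the core group and at 12.2 and 6.09 in the granule group. Klf4, which acts with Irf8 in monocyte differentiation, stood at 169 and 134 CPM in the monocyte group and 10.6 and 5.63 in the core group. Gfi1, the repressor that favours the neutrophil fate, was lowest in the monocyte group at 7.99 and 8.54 CPM, against 68.6 and 68.9 in the core group. Cebpe, the factor that drives specific granule genes, stood at 755 and 722 CPM in the granule group, 255 and 326 in the core group and 34.8 and 26.1 in the monocyte group. Cd34, a surface marker of early progenitors, was near 0 in the granule group (0.51 and 0 CPM) and stood at 63.5 and 58.8 CPM in the core group.

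The rule and the definition of the granule group together require transcripts of both granule stages. The Elane level of this group, 10750 CPM in ground and 11042 in running, was close to that of the core group at 10825 and 11481, and its Camp level, 37942 and 38130 CPM, was close to that of specific granule barcodes at 35425 and 36737. Elane chose the members and Camp the group, so both are descriptions, whereas Fcnb, a ficolin of early neutrophil precursors, was used for neither. Fcnb stood at 1922 and 2207 CPM in the granule group, 355 and 525 in the core group and 536 and 542 in specific granule barcodes. Ltf, the lactoferrin gene of the fully formed myelocyte, stood at only 819 and 893 CPM in the granule group against 10664 and 9941 in specific granule barcodes. The nucleolar gene Npm1 stood at 413 and 436 CPM in the granule group, against 2258 and 1794 in the core group and 2135 and 2140 in the monocyte group. The ER chaperone Calr was also lowest in the granule group, with 375 and 441 CPM against 1279 and 1325 in the monocyte group and 2057 and 1626 in the core group. Mki67, a gene of dividing cells, remained at 358 and 361 CPM in the granule group, above the 264 and 213 of the core group.

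Within the deep members, the marker share itself ran alongside lineage. Irf8 stood at 482 CPM in ground and 357 in running among members with a share of 1 to 2%, at 132 and 126 for 2 to 5%, and at 3.38 and 2.60 for 5 to 10%. Cd34 followed with 77.3 and 83.9, then 41.1 and 36.4, then 1.13 and 0 CPM. Gfi1 ran in the opposite direction, from 15.1 and 27.4 through 58.8 and 63.6 to 133 and 114 CPM, and Cebpe from 197 and 216 to 475 and 492 CPM. The barcodes richest in azurophil transcripts therefore held the least Irf8 and Cd34 and the most Gfi1. The highest band held 27 ground and 15 running deep members.

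Fewer of the kept barcodes were members in running. The share was 4.33% in ground (3.92 to 4.78%) and 2.57% in running (2.26 to 2.92%), a ratio of 0.593 (0.506 to 0.696). The larger part of the gap lay in shallow barcodes: members with fewer than 10000 UMIs made up 1.35% of kept barcodes in ground and 0.131% in running. Among barcodes with fewer than 10000 UMIs, 120 of 6368 were members in ground (1.88%) and 12 of 7202 in running (0.167%), a ratio of 0.0884 (0.0489 to 0.160). Among barcodes with at least 10000 UMIs, 266 of 2541 were members in ground (10.5%, 9.30 to 11.7%) and 224 of 1978 in running (11.3%, 9.96 to 12.8%), a ratio of 1.08 (0.915 to 1.28). Barcodes of that depth were themselves less frequent in running, at 21.5% of kept barcodes against 28.5%, so that deep members made up 2.99% of all kept barcodes in ground and 2.44% in running (ratio 0.817, 0.686 to 0.974). The limit of 10000 UMIs was chosen after the data were seen.

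**Figure D2:**
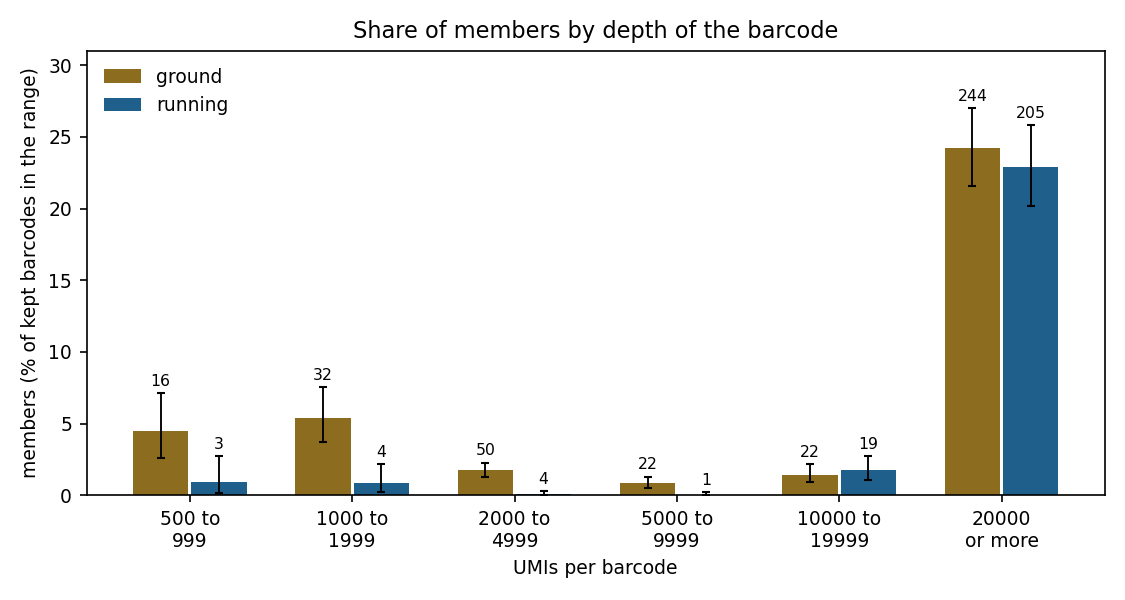
Share of kept barcodes that were members (bars, in percent, with exact 95% binomial intervals) in ranges of UMIs per barcode, for ground and running, with the number of members above each bar. Ground stands higher in the 4 ranges under 10000 UMIs, and the intervals of the libraries overlap in the ranges above it.

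The excess of shallow members in ground held at each range below 10000 UMIs. The counts in ground and running were 16 and 3 from 500 to 1000 UMIs, 32 and 4 from 1000 to 2000, 50 and 4 from 2000 to 5000, and 22 and 1 from 5000 to 10000. Above it the counts were 22 and 19 up to 20000 UMIs and 244 and 205 beyond. The gap was smaller or opposite in neighbouring sets. Barcodes under 5000 UMIs made up 25.4% of ground members and 4.66% of running members (ratio 0.184, 0.101 to 0.335), 14.1% and 11.7% of specific granule barcodes (ratio 0.833, 0.711 to 0.977), 12.7% and 8.14% of monocyte barcodes (ratio 0.641, 0.496 to 0.828) and 66.0% and 61.8% of stem and progenitor barcodes (ratio 0.936, 0.831 to 1.06). Mature neutrophil barcodes went the other way, at 65.9% and 82.3% (ratio 1.25, 1.21 to 1.29), as did all kept barcodes outside the members, at 43.8% and 49.4% (ratio 1.13, 1.09 to 1.16). The difference between these ratios was not tested.

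**Figure D3:**
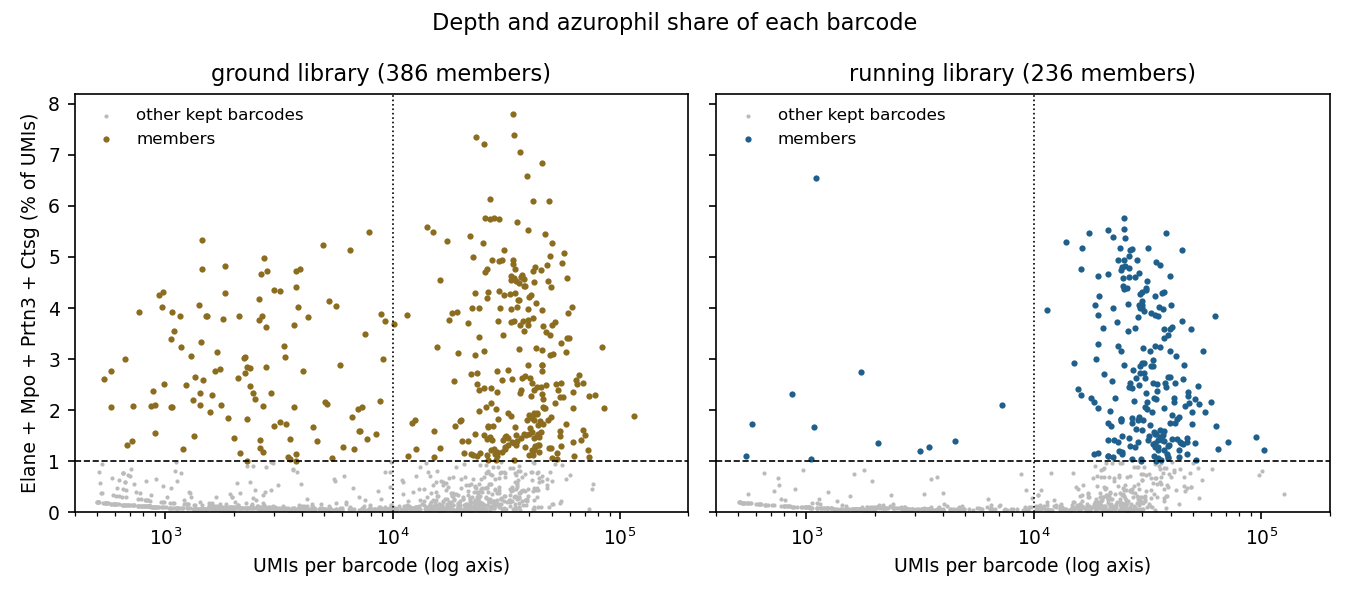
UMIs per barcode (log axis) against the summed share of Elane, Mpo, Prtn3 and Ctsg (percent of UMIs) for kept barcodes with a share of at least 0.05%, by library, with members above the dashed line at 1% and the dotted line at 10000 UMIs. Members of both libraries form a cloud around medians of 28546.5 and 30456 UMIs, and the ground library adds 120 members to the left of the dotted line where running has 12.

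Shallow ground members carried azurophil transcripts, as the rule requires, and differed from deep ground members in other genes. Elane stood at 6515 CPM in shallow and 9103 in deep ground members, and Mpo at 7741 and 5903. Cxcr2 stood at 79.4 CPM (53.1 to 114) in shallow and 12.9 (10.8 to 15.4) in deep ground members, and the inflammatory cytokine Il1b at 170 (130 to 217) in shallow and 15.3 in deep ones. Pim1, a kinase gene induced by STAT signalling, stood at 296 CPM (242 to 357) and 81.8 (76.4 to 87.6). Summed B-cell markers stood at 438 CPM in shallow and 181 in deep ground members, with Cd79a at 73.9 and 10.5. Mitochondrial transcripts took a median of 1.86% of UMIs in shallow and 2.74% in deep ground members. The part of free RNA or mixed barcodes in the shallow members was not tested, and the doublet caller marked 4 ground and 1 running member in all.

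Clustering of the members without the marker genes gave 9 sub-clusters, of which 3 were shallow, with a median under 10000 UMIs over both libraries together. These held 110 of 386 ground members (28.5%, 24.0 to 33.3%) and 13 of 236 running members (5.51%, 2.97 to 9.24%). The largest shallow sub-cluster, with 49 ground and 2 running members and a median of 2583 UMIs, was led by the MHC class II genes Cd74 and H2-Aa and by Ifi27l2a, Apoe and the B-cell gene Ms4a1, and it was left unnamed. The next was led by the later neutrophil genes Ltf, Mmp8, Mmp9 and Ly6g (20 and 2 members), and the last by Cd34, Ifitm1 and Tmem176b (41 and 9 members). The 2 running members of the largest had a median of 29242.5 UMIs, and the 2 of the next 28617. The running count in shallow sub-clusters therefore includes deep barcodes. The 6 deep sub-clusters all held both libraries. They had 41 ground and 39 running members in the one led by Vcam1, Rgcc and Srgn, 53 and 35 in the one led by Mcpt8 and Cpa3, 48 and 35 and 38 and 36 in a pair led by Camp, and 37 and 45 in the one led by Irf8 and F13a1. The last, with 59 and 33, was led by the plasma cell genes Igha, Jchain and Igkc ahead of Irf8, and 1 ground barcode held most of the Igha UMIs. Over all members, Mcpt8 had at least 10 UMIs in only 6 ground and 5 running members. For this gene 1 ground barcode held 522 of 960 UMIs, and 1 running barcode held 598 of 1619.

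Expression in running and ground was then compared across 9713 genes with at least 50 UMIs over both libraries of members. A gene was called where its CPM differed at least 1.5-fold and the counting interval of the log2 ratio left out 0, a rule of size that describes these libraries and is no test of the groups. By this rule 215 genes (2.21%) were higher in running and 145 (1.49%) lower, and the median log2 ratio over all genes was -0.02. Among deep members, 245 of 9666 genes (2.53%) were higher and 138 (1.43%) lower. Of the genes called over all members, 206 of the 215 higher and 125 of the 145 lower were also called among deep members. Of the called genes that had enough UMIs in each of the 3 deep groups, 31 of 36 higher and 12 of 13 lower genes kept their direction in all 3.

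**Figure D4:**
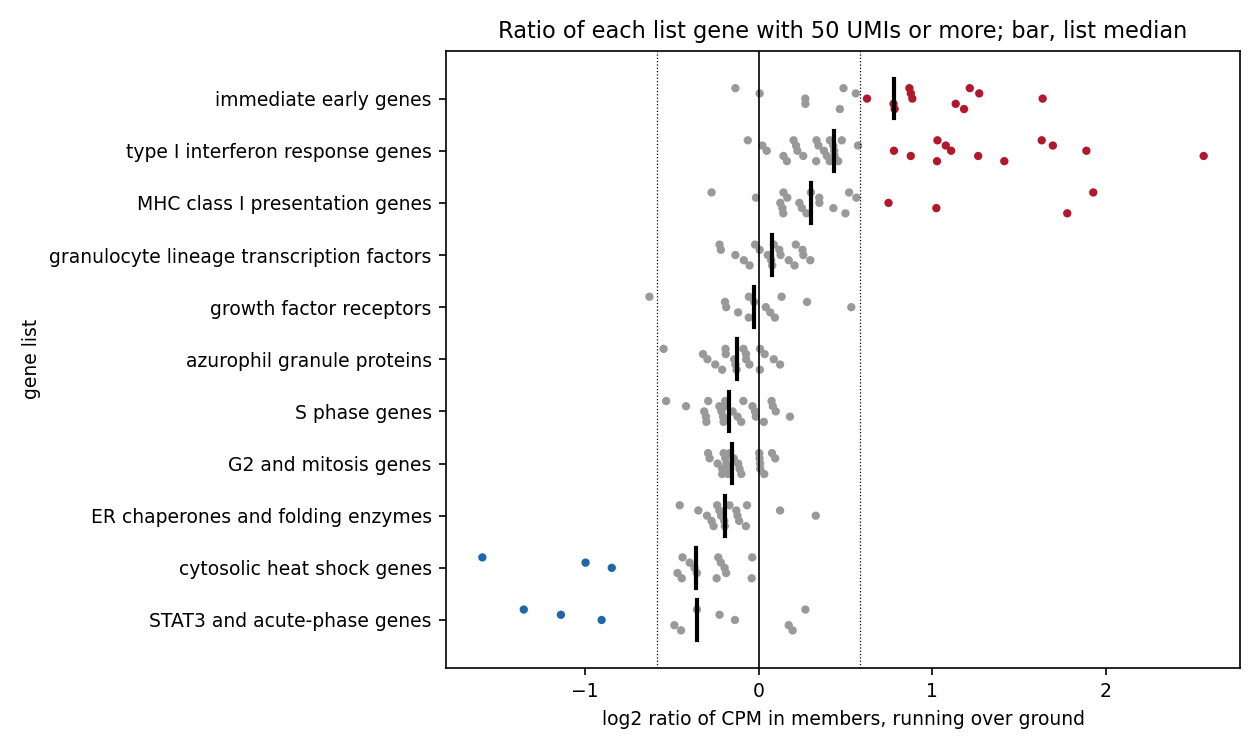
Log2 ratio of CPM in members (running over ground) for each gene of the lists with at least 50 UMIs (points) and the list median (bar), with dotted lines at 1.5-fold. Red and blue points are called higher and lower genes, and the immediate early and heat shock lists lie mostly to opposite sides of 0.

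Few granule genes reached 1.5-fold, as was so for genes in general. Over all genes tested in the members, 2.21% were called higher and 1.49% lower. For granule lists of this size, 0 calls over all members lie near those shares. Within the deep groups, the share of all genes called higher and lower was 2.78% and 1.81% in the core, 3.83% and 1.75% in the granule and 2.1% and 2.64% in the monocyte group. Of 15 azurophil granule genes other than the markers 0 were called, 12 lay below 0 and the median was -0.13. The lowest ratio in that list was that of Ctsc, the protease that activates elastase, proteinase 3 and cathepsin G by trimming their proforms, at 86.1 CPM in ground and 58.9 in running (log2 -0.55, -0.72 to -0.38). Of 16 specific and gelatinase granule genes none was called either (median 0.04), with Fcnb at 0.37 and the lipocalin gene Lcn2 at -0.36. By group the median of that list was 0.33 in the core, -0.13 in the granule and -0.40 in the monocyte group, where 2 genes were called lower. Among 6 inhibitors and stefins, Stfa1 was called higher (1.21), and 41 of its 74 running UMIs came from 1 barcode. Slpi, the secreted inhibitor of elastase and cathepsin G, stood at 230 CPM in ground and 334 in running (0.53, 0.45 to 0.62) and did not reach 1.5-fold.

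Summed over the members, the fate and receptor genes had 0 calls, a count near the background shares for lists of this size. None of 19 lineage transcription factors was called (median 0.08), nor any of 14 monocyte branch genes (median -0.10), 13 growth factor receptors (median -0.03) or 13 homing and adhesion genes (median 0.03). The groups differed from this sum. In the core group 6 of 13 monocyte branch genes were called lower (median -0.44), some of them genes that kept barcodes out of that group, and 2 lineage factors were called higher and 2 lower. In the monocyte group 12 of 13 homing and adhesion genes lay below 0 (median -0.27), with 1 called. Csf3r, the receptor for the neutrophil growth factor G-CSF, stood at 64.9 CPM in ground and 67.9 in running. Cxcr4, which retains cells in the marrow, stood at 62.5 and 51.8 CPM. Of 12 stem and multipotent progenitor genes 3 were called higher and 1 lower (median 0.38). That list holds Gata2, also a gene of basophils and mast cells, with 51 UMIs in ground and 115 in running. The part of such cells in the list result was not tested. Kit, the stem cell factor receptor, stood at 40.1 CPM in ground (36.3 to 44.1) and 58.0 in running (52.7 to 63.7), a log2 ratio of 0.53 (0.34 to 0.73) that was not called. Its ratio was 0.40 in the core, 1.13 in the granule and 1.08 in the monocyte group. Sox4 stood at 0.58 (0.39 to 0.78), whereas the mucin gene Muc13 was called lower at -1.28 (-1.71 to -0.87) and Cd34 was even at 0.10 (-0.09 to 0.29).

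Summed over the members, most growth and division genes lay slightly below 0, with 0 called. Of 24 S phase genes 19 lay below 0 (median -0.17), with Rrm2, a subunit of ribonucleotide reductase, at 193 CPM in ground and 144 in running (-0.42, -0.53 to -0.31). Of 22 mitosis genes 15 lay below 0 (median -0.15), of 21 ribosome biogenesis genes 16 (median -0.11) and of 18 ER chaperones and folding enzymes 16 (median -0.20). The granule group went the other way for ribosome biogenesis, with 6 of 17 genes called higher, 16 above 0 and a median of 0.47, against -0.14 in the core and 0.03 in the monocyte group. The ER list had a median of 0.15 in the granule group. Npm1 differed between groups of members, with a ratio of -0.33 (-0.37 to -0.29) in the core, 0.08 (-0.07 to 0.22) in the granule and 0.00 (-0.05 to 0.06) in the monocyte group, a difference that was not tested. Glycolysis (17 genes, median -0.12), the nuclear-encoded respiratory chain (21 genes, -0.08) and haem synthesis and iron uptake (14 genes, -0.16) had no called gene over all members. In the granule group 3 of 9 haem and iron genes were called higher (median 0.49). Erythroid markers stood there at 124 CPM in ground and 1365 in running. Over all running members, 1 barcode held 1247 of the 1731 UMIs of the globin gene Hbb-bs. The part of erythroid transcripts and of single barcodes in the result was not tested.

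Immediate early genes, which cells switch on within minutes of a stimulus and also during tissue dissociation, stood higher in running members. Of 18 genes tested 11 were called higher and none lower, with 17 above 0 and a median of 0.78. Fos (chr12:85473890-85477274) stood at 46.3 CPM in ground (42.2 to 50.6) and 144 in running (135 to 153), a log2 ratio of 1.64 (1.48 to 1.79). Its partner Jun stood at 187 and 341 CPM, and the quiescence-linked factors Klf2 and Klf6 stood at 34.2 and 79.4 CPM and at 42.5 and 93.5 CPM. Within the deep core group 12 of 17 genes of the list were called higher and 2 lower. The deep granule group had 5 of 13 called higher and the deep monocyte group 14 of 18, with 0 lower in either. By group, Fos had 158 and 213 UMIs in the core, and its log2 ratio was 0.86 (0.36 to 1.36) in the granule and 1.88 (1.67 to 2.10) in the monocyte group. Klf2 was uneven, at 2.03 (1.73 to 2.35) in the monocyte group and -0.42 (-0.84 to 0.00) in the granule group. The list median was 0.24 in specific granule barcodes, 0.46 in monocyte barcodes and 0.23 in stem and progenitor barcodes. When each barcode was weighted equally, 5 genes of the list were called in place of 11, and Egr1 changed sign; with each member thinned to 2000 UMIs 4 were called. The summed level of the list stood at 1743 CPM in shallow ground members against 859 in deep ones, and among deep members alone 12 genes were called.

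Cytosolic heat shock genes stood lower in running members. All 16 genes tested had a log2 ratio below 0, 3 were called lower and the median was -0.36. Hspa1b (chr17:34956429-34959238), an inducible chaperone, stood at 33.6 CPM in ground (30.2 to 37.3) and 11.1 in running (8.88 to 13.8), a log2 ratio of -1.59 (-1.95 to -1.24). Hspa1a, which is nearly identical in sequence so that reads may be split between the pair, had 250 and 89 UMIs, not scaled to library totals. Hsph1, a co-chaperone of the same family, stood at 65.2 and 36.3 CPM. The abundant constitutive chaperones differed less, with Hspa8 at 2293 and 1687 CPM and Hsp90aa1 at 1366 and 988 CPM. The list median was -0.41 in the core group, -0.07 in the granule group and -0.23 in the monocyte group. It was -0.10 in specific granule barcodes, -0.20 in monocyte barcodes and -0.19 in stem and progenitor barcodes. Heat shock and immediate early genes are both also induced by the handling of cells, which cannot be told apart from the group here.

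Genes of the type I interferon response stood higher in running members. Of 34 genes tested 12 were called higher and none lower, with 33 above 0 and a median of 0.43. Their counts were small. Rtp4 had 15 UMIs in ground and 63 in running (1.43 and 8.46 CPM), and the ubiquitin-like modifier Isg15 had 27 and 71 (2.58 and 9.53 CPM). Irf7, the factor that amplifies the response, had 19 and 36 UMIs, and the antiviral synthetase Oas3 had 30 and 66. The most counted of the called genes was Ifi27l2a, at 24.4 CPM in ground and 58.7 in running. Its ratio changed sign when barcodes were weighted equally (-0.069) and when members were thinned (-0.0598). By group the list median was 0.48 in the core, 0.15 in the granule and 0.05 in the monocyte group. Specific granule barcodes stood at 0.92, monocyte barcodes at 0.68 and stem and progenitor barcodes at 0.44, so the members' median was not above that of any of these sets. With barcodes weighted equally 6 genes of the list were called, and with each member thinned to 2000 UMIs only 6 genes could be tested, of which 0 were called. Of 7 genes tied more to interferon gamma, 1 was called (median -0.06).

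MHC class I presentation genes, many of them interferon targets, had 4 of 21 genes called higher and none lower (median 0.30). The list median was 0.46 in specific granule barcodes, 0.48 in monocyte barcodes and 0.22 in stem and progenitor barcodes. The nonclassical class I genes led. H2-Q7 stood at 21.2 CPM in ground (18.5 to 24.2) and 80.6 in running (74.2 to 87.3), H2-Q6 at 8.97 and 30.7, H2-Q4 at 14.6 and 29.7 and H2-T22 at 17.3 and 29.0 CPM. H2-Q6 and H2-Q7 are near-identical copies, and how reads were divided between them is uncertain. The classical genes H2-K1 (426 and 612 CPM) and H2-D1 (485 and 686 CPM) had ratios of 0.52 and 0.50 and were not called. H2-Q7 was higher in each group of members, with 162 and 377 UMIs in the core, 13 and 147 in the granule and 31 and 74 in the monocyte group.

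**Figure D5:**
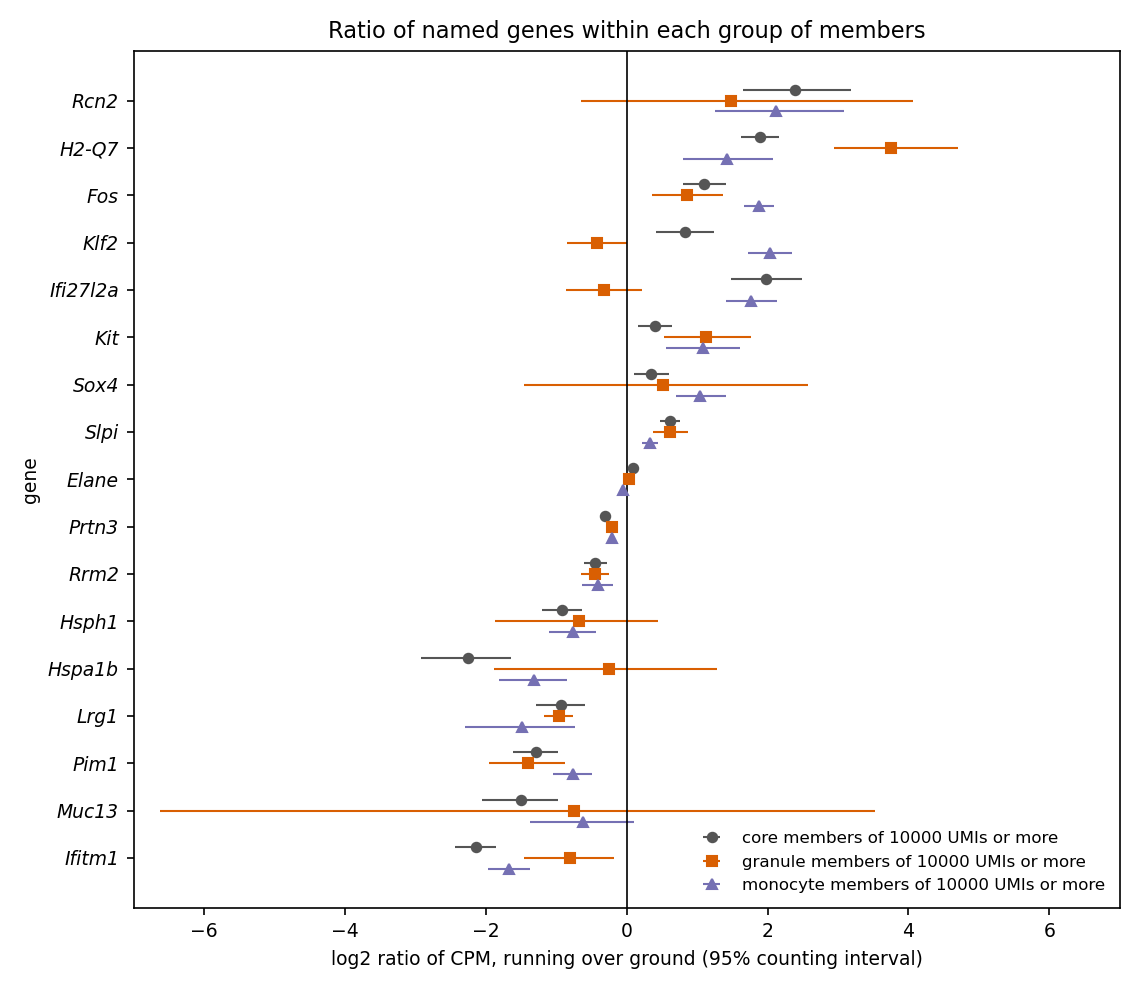
Log2 ratio of CPM (running over ground) of named genes within the core, granule and monocyte groups of deep members, with 95% counting intervals (bars). Rcn2, H2-Q7 and Fos lie above 0 and Ifitm1 and Pim1 below 0 in all 3 groups, and the intervals of genes with few UMIs are wide.

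STAT3 and acute-phase genes held 3 called genes of 11, all lower in running (median -0.36). The list median was -0.37 in specific granule barcodes, -0.60 in monocyte barcodes and -0.53 in stem and progenitor barcodes. Pim1 stood at 89.3 CPM in ground and 40.5 in running, a log2 ratio of -1.14 (-1.33 to -0.95), and at -1.01 among deep members. Bcl3, a nuclear cofactor of NF-κB, stood at 12.7 and 4.97 CPM. Lrg1, an acute-phase glycoprotein stored in neutrophil granules, stood at 104 and 55.5 CPM (-0.90, -1.07 to -0.74). Pim1 lay below 0 in each group, at -1.29 in the core, -1.40 in the granule and -0.77 in the monocyte group. Of 14 p53 and apoptosis genes 2 were called higher, the survival gene Bcl2 (24.0 and 39.6 CPM) and Bbc3. Of 14 integrated stress response genes 2 were higher and 1 lower (median -0.06). Of 12 glucocorticoid response genes 3 were called higher, and 8 lay below 0 (median -0.08). Over all genes tested in the members, 2.21% were called higher and 1.49% lower.

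Among the genes with the most extreme ratios, Rcn2 and Ifitm1 had ratios of like direction in each group of members, less surely so for Rcn2 in the granule group. Rcn2 (chr9:56041845-56059083), a calcium-binding protein of the secretory pathway, had 37 UMIs in ground and 128 in running, or 3.53 CPM (2.49 to 4.87) and 17.2 CPM (14.3 to 20.4), a log2 ratio of 2.28 (1.75 to 2.85). Its ratio was 2.39 in the core, 1.48 (-0.65 to 4.06) in the granule and 2.12 in the monocyte group. Over all other kept barcodes it stood at 1.95. The granule interval of Rcn2 included 0, and the gene had too few UMIs in that group to be tested there. Among deep members with a marker share of 5 to 10%, Rcn2 had 0 UMIs in ground and 1 in running. Nrp2 and Itgb1, described as its receptors, were not called, at -0.34 (-1.07 to 0.35) and -0.07 (-0.23 to 0.09). Ifitm1 (chr7:140967429-140969827), a membrane protein that limits virus entry, ran the other way, with 1397 UMIs in ground and 269 in running and a log2 ratio of -1.88 (-2.08 to -1.69). Its ratio was -2.14 in the core, -0.81 in the granule and -1.67 in the monocyte group and -2.11 over all other kept barcodes. Both genes thus had ratios of like direction outside the members.

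Others among the extreme genes were set by the group in which they were found. Lipg, the endothelial lipase gene, was counted mainly in the granule group, with 86 UMIs in ground and 6 in running. Ms4a6d was counted mainly in the monocyte group, with 73 and 19 UMIs, as was the lipase gene Lpl, with 23 and 60. Muc13 and the chaperone-like secreted protein gene Clu were counted mainly in the core, with 166 and 37 and with 92 and 16 UMIs. Wfdc17, a small protease inhibitor-like gene, was lower in running in each group, at -1.73, -3.28 and -0.84. H1fx, a linker histone gene, had 45 and 87 UMIs.

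Several high and low ratios came from a handful of barcodes. The chemokine gene Cxcl12, highest of all at 4.43, had 9 UMIs in ground and 138 in running, of which 117 lay in 1 barcode. The mast cell and basophil protease gene Prss34 had 473 and 1941 UMIs, with 340 and 814 in 1 barcode each, and the eosinophil granule genes Prg2 and Prg3 had 50.5% and 55.8% of their ground UMIs in 1 barcode, and their ratios changed sign at member thresholds of 2% and 0.5%. Cpa3, of mast cells and basophils, had 250 and 458 UMIs, with at least 10 in 4 ground and 9 running members, and Gata2, the factor of that lineage and of stem cells, had 51 and 115. Summed basophil and mast markers stood at 178 CPM in ground members and 582 in running members, and eosinophil markers at 154 and 39.5 CPM. Both were concentrated in the core group, at 304 and 1162 CPM and at 282 and 74.5 CPM. Plasma cell markers stood at 164 and 6.58 CPM, and 1 ground barcode held 3828 of the 4183 Igha UMIs.

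Markers of other cell types were low in members of both libraries. B-cell markers summed to 190 CPM in ground and 175 in running, against 13845 and 13287 CPM in B-cell barcodes. The T-cell gene Cd3e had 7 and 0 UMIs and the macrophage gene C1qa 15 and 8. Macrophage markers summed to 56.6 and 84.6 CPM, dendritic cell markers to 90.9 and 110 CPM and platelet markers to 7.35 and 9.67 CPM. Most of the macrophage sum was Vcam1, with 482 and 555 UMIs spread over 127 ground and 110 running members. Vcam1 also led a deep sub-cluster of the members, so that sum is no measure of macrophage transcripts. Erythroid markers summed to 339 and 464 CPM, and 665 of the 943 running UMIs of the globin gene Hba-a1 lay in 1 barcode. The part of these markers in the ratios above was not tested.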

How the data were processed

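The deposited matrices hold raw UMI counts for each gene in each barcode. Per the file headers, the authors used Cell Ranger 5.0.0 for counting, and the submitters' processing notes add STAR and mm10. Libraries used Chromium 3′ v3 reagents, per the labels' protocols. Barcodes with at least 500 UMIs, 250 genes and at most 10% mitochondrial UMIs were kept, leaving 8909 of 9162 in ground (85014860 UMIs in all) and 9180 of 9473 in running (79990530 UMIs). The members and gene lists were chosen with earlier results of these data known.

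Counts were summed over barcodes and scaled to CPM. Numbers given as UMIs are not scaled, and the members held 10482109 UMIs in ground and 7447599 in running. Neighbouring sets were taken in turn from the barcodes outside the members: specific granule (Camp, Ltf, Ngp and Chil3 at 2% of UMIs or more), monocyte (Ccr2, Csf1r, F13a1, Ms4a6c and Fn1 at 0.3%), stem and progenitor (Cd34, Kit, Adgrg1, Cd27 and Sox4 at 0.1%) and mature neutrophil (S100a8 and S100a9 at 2%, with Cxcr2, Csf3r, Il1b, Mmp8 and Mmp9 at 0.1%). B-cell barcodes held B-cell transcripts, such as Cd79a, Cd79b, Ebf1, Ighm and Ms4a1, at 0.3%. The cholesterol synthesis list is not reported here. Levels carry exact Poisson intervals, shares exact binomial (Clopper-Pearson) intervals, CPM ratios exact conditional binomial intervals, and ratios of shares normal intervals on the log scale. Intervals and calls were tested on simulated counts for the members, running against ground (9713 genes, 200 changed 2-fold). Of the intervals 96.0% covered the simulated ratio, 97% of changed genes were recovered, and 0.746% of unchanged genes were called. The simulated counts varied by Poisson counting error only, which the intervals assume, and did not clump by barcode. These shares therefore check the computation and do not measure how often real genes were called in error.

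Named genes were the markers, the 10 highest and 10 lowest ratios with at least 100 UMIs and an interval that left out 0 (without unnamed, sex-linked marker, ribosomal, mitochondrial, globin and antigen receptor genes), up to 4 genes per list of largest ratio with at least 100 UMIs, and Rcn2, Nrp2 and Itgb1. For levels across the groups, lineage genes with most UMIs were used. Other genes named from the lists, such as Rtp4, Isg15, Irf7, Oas3, Bbc3, Jun, Klf6 and Hspa8, were chosen after their values were seen, as were those describing shallow members and sub-clusters. Of 469 listed genes 464 were used. Coordinates are from RefSeq (GRCm38.p6), matched by symbol for 116 of 117 named genes. Doublets were called with Scrublet in each library (243 barcodes, 2.73%, and 100, 1.09%) and kept in the main values. Members were clustered with the Leiden algorithm without the 4 marker genes. The tools were scanpy 1.11.5, igraph 0.11.9, scikit-learn 1.9.0, pandas 2.3.3, scipy 1.17.1 and numpy 2.4.6 under Python 3.11.15. Alternatives varied the member threshold, depth and mitochondrial limits, doublets, shared barcodes, weighting, thinning to 2000 UMIs, fold, UMI minimum and clustering.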

Additional observations from a re-analysis of the deposited data

Results flagged for a closer look

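The share of members among kept barcodes differed in direction with depth. Running had 0.0884 times the ground share among barcodes under 10000 UMIs and 1.08 times among deeper ones. The difference between the ratios was not tested.

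Of the named genes, 18 had log2 ratios (running over ground) of opposite sign in members and in all other kept barcodes, with both counting intervals leaving out 0. The 5 of them that were also called in members are given here, and the other 13 did not reach 1.5-fold. Prg2 stood at -2.69 in members and 3.81 elsewhere, and Prg3 at -1.44 and 2.64. Clu stood at -1.75 and 0.65. Stfa1 stood at 1.21 and -0.14, and Dusp1 at 0.78 and -0.03. None of these differences was tested, and Prg2, Prg3 and Stfa1 rest on few members.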

How the results depend on the processing

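With 1 library per group no replicate could be left out. No paired analysis was possible because each group has 1 library. The ratio of member shares stayed below 1 under every alternative run except a minimum of 10000 UMIs per barcode, where it was 1.08. The share of ground members in shallow sub-clusters was 23.3% at a resolution of 1. Genes called higher and lower numbered 63 and 84 with members thinned to 2000 UMIs (2870 genes tested), 325 and 223 with a minimum of 10 UMIs, 65 and 33 with 200 UMIs, and 71 and 50 at 2-fold. Called immediate early genes numbered 7 with a member threshold of 2%, 5 with barcodes weighted equally, 4 when thinned and 5 at 2-fold. Called interferon genes numbered 6 with equal weights, 0 when thinned and 1 with a minimum of 200 UMIs, heat shock genes 1 when thinned and 1 at 2-fold, and MHC class I genes 2 when thinned. With equal weights among members of 10000 UMIs or more only, 10 immediate early and 12 interferon genes were called. Thinning leaves fewer UMIs and fewer genes to test. Apart from thinning, the cause of each change was not tested. Prg2, Prg3, Atf3 and Mt2 changed sign with a threshold of 2% (0.92, 0.48, -0.057 and -0.98), Prg2 and Prg3 with 0.5% (0.62 and 1.03), Egr1 and Ifi27l2a with equal weights (-0.36 and -0.069), Mt2 without its top barcode (-0.56), and Ifi27l2a and Dusp1 when thinned (-0.060 and -0.063). Of 751 recomputed values of 58 named genes, 617 moved by less than the counting interval, 123 moved further and 11 changed sign. Sign changes were counted only for genes called in the main values. For the other genes only the size of the move was counted.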
